A study of Mus musculus with 12 samples.

Results

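The effect of cyclosporin A (CsA) on resting CD4+ T cells was read from 6 of the 12 RNA-seq libraries of the series, the 3 titled CsA_US and the 3 titled ethanol_US, chosen by their titles. All were total CD4+ T cells from spleens of C57BL/6 mice, purified untouched, that is, by removing the other cells; no further genotype or age is given. Pre-treatment lasted 1 h, with CsA at 1 µM or with ethanol alone, the vehicle. No stimulus followed, and how long the cells were kept before lysis is not stated. The other 6 libraries received the same pre-treatments followed by 10 nM PMA plus 1 µM ionomycin for 2 h and serve here only to set the resting values beside stimulated ones. Libraries were made from total RNA with SMART-seq, which copies polyadenylated RNA into full-length cDNA.

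Calcineurin is a calcium-dependent phosphatase that strips phosphate from NFAT transcription factors so that they enter the nucleus. CsA binds cyclophilins such as Ppia, and the complex blocks calcineurin. Resting T cells are known to receive weak tonic signals through the antigen receptor, which keep some receptor-responsive genes transcribed. Comparing CsA with vehicle in unstimulated cells asks which transcripts depend on calcineurin before any added stimulus.

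The 6 libraries held 11441312 to 18468044 estimated counts each, which puts the limit for a gene with a count of 0, taken as 3 counts, at 0.162 to 0.262 CPM (counts scaled to a common library size), by counting error only. The T cell markers Cd3e and Cd4 were high in all 6, at 199 to 355 and 392 to 500.3 CPM. Both libraries numbered 2 stood apart on the principal component that took 31.6% of the variance: the myeloid gene Lyz2 was at 129 CPM in vehicle 2 and 138 CPM in CsA 2, against 17.3 to 37.9 CPM in the other 4. The summed B cell list (13 genes) spanned 2821 to 5650 CPM with vehicle and 2672 to 4931 CPM with CsA. None of the tested members of the B cell, plasma cell, CD8 and NK, myeloid, or erythroid lists had an unadjusted p below 0.05. At that threshold 2.2% of all genes tested were lower and 2.25% higher. Same-numbered libraries deviated together, so results are given also with the replicate number as a block. Among the stimulated libraries, the one labelled CsA_PI 2 was the nearest of all 66 library pairs to vehicle unstimulated 2, with a mean chi-square per gene of 4.7 against 17.3 for the next nearest pair, and comparisons that use it are given with and without it. Nothing in the labels ties a replicate to an animal of its own. Every p-value therefore rests on library-to-library spread alone, part of which could be technical.

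The genes that fell most clearly with CsA in resting cells were Egr2, an antigen-receptor-induced zinc-finger transcription factor; Hspa4l, a heat-shock chaperone; and 4 interferon-inducible GTPases, Gbp2, Gbp4, Gbp11 and Gm12250 (known as Irgb10). These 6 genes, 0.0437% of the 13730 tested, were called lower at a Benjamini-Hochberg adjusted p under 0.05 in edgeR with the replicate block. Together with 1 gene called higher they made 7 calls, 0.051% of the genes tested. Without the block edgeR called 1 gene (0.00728%), the amylase gene Amy2a5, and 0 lower. At an unadjusted p below 0.05 the fit without the block had 302 genes lower (2.2%) and 309 higher (2.25%), and the fit with it 623 (4.54%) and 653 (4.76%); limma-voom called 0 lower, and DESeq2 called 19 lower and 4 higher (0.133% of 17321 genes). The 6 genes that fell with the block are therefore given with both adjusted p-values.

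Promoters are shown for Egr2, Gbp2 and Gm12250, which were called with the block, and for Igtp, an uncalled family member with the highest level per length. The sequences come from the RefSeq promoter table on GRCm38.p6 and run from 250 bases before to 50 bases after the RefSeq start, 5′ to 3′ on the plus strand, at chr10:67537619-67537918 for Egr2, chr3:142620413-142620712 for Gbp2, chr11:58183593-58183892 for Gm12250 and chr11:58199306-58199605 for Igtp. Capitals mark GGAAA, the core of NFAT sites (or its reverse complement TTTCC), in Egr2. In the GTPase genes they mark the interferon-stimulated response element (ISRE), here GAAA, any 2 bases and GAAA again on either strand, and the gamma-activated site (GAS), TTCNNNGAA.
Egr2: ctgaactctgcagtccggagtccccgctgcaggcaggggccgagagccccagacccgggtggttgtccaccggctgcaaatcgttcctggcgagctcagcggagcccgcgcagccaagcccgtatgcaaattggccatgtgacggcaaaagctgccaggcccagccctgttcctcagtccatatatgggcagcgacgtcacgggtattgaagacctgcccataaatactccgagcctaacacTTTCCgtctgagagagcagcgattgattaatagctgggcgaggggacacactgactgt
Gbp2: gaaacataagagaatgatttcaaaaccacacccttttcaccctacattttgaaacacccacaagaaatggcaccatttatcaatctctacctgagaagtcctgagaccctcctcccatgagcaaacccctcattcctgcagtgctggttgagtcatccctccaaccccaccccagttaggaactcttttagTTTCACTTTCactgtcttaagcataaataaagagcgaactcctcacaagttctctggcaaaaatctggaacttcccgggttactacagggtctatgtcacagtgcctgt
Gm12250: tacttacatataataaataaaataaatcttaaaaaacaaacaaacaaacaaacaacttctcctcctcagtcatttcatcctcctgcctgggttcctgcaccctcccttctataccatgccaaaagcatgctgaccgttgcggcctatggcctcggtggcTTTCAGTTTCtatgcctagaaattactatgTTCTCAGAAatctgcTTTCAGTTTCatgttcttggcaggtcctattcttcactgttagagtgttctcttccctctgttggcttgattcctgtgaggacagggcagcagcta
Igtp: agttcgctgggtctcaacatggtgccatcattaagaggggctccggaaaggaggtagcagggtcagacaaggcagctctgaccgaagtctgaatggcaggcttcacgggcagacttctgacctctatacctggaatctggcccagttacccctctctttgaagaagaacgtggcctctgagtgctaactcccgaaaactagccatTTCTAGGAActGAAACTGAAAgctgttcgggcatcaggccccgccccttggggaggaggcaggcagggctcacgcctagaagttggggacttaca
Egr2 held 1 GGAAA match, and 61.3% of all 32851 promoter windows hold at least 1, so such a match is common. The ISRE letters are rarer, in 3.4% of windows, and was present once in Gbp2, once in Igtp and at 2 places in Gm12250. Of 19 GTPase genes of the guanylate-binding and immunity-related families, 12 were matched in the table; 10 of the 12 held the ISRE letters and 7 held TTCNNNGAA, which is in 8.3% of all windows. GGAAA was in 8 of the 12, TGANTCA (AP-1) in 3, and TGACGTCA (CRE) and GTGGGCG (Egr) in 0, against 7.8%, 1.8% and 8.0% of all windows. All motifs were searched on both strands, and the 2 interferon motifs were added after the expression values were seen. The Gm12250 window lies 3896 bases from the transcript start of the annotation used for counting, which lists the gene as a processed pseudogene where RefSeq lists a protein-coding gene. The Ifi47 window, which held neither interferon motif, lies 10452 bases from the start of its counted transcript.

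Egr2 (ENSMUSG00000037868, mm10 chromosome 10 from 67535475 to 67542188) had the largest difference of the 6. Its levels were 92.5, 51.8 and 36.3 CPM in vehicle libraries 1, 2 and 3 and 7.73, 9.16 and 5.45 CPM in CsA libraries 1, 2 and 3. Every CsA library was thus far below every vehicle library, although the vehicle libraries differed among themselves. The means were 60.2 ± 29.1 and 7.44 ± 1.87 CPM (SD, n = 3), an 8.09-fold difference of means. On the log2 scale edgeR put the difference at −3.01 ± 0.37 (SE; adjusted p = 0.104, and 0.00236 with the block). Over the 19 alternative settings its log2 fold change stayed between −3.25 and −2.56, and it was called in 7 of them. Both Egr2 transcripts measured had lower means: Egr2-201 averaged 43.0 CPM with vehicle and 3.90 CPM with CsA, and Egr2-202 16.9 and 3.43 CPM. At the level of single transcripts edgeR called 0 of 31170, of which 889 (2.85%) had an unadjusted p below 0.05, and it called 0 with the block as well.

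Hspa4l (ENSMUSG00000025757, chromosome 3 from 40744495 to 40796103) belongs to a chaperone family that helps heat-shock proteins exchange nucleotide. It was at 40.6, 43.8 and 42.0 CPM with vehicle and at 13.4, 12.2 and 20.0 CPM with CsA. The vehicle values lay close together and above all CsA values. The log2 fold change was −1.47 ± 0.22 (adjusted p = 0.162, and 0.0473 with the block), called in 7 of 19 alternatives. Of 22 genes on the list of the unfolded protein response and chaperones, 1 (Calr) was higher and 0 were lower at an unadjusted p below 0.05. That threshold was met by 2.25% of all genes on the higher side and 2.2% on the lower side. The median log2 fold change of the list was 0.02.

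**Figure D1:**
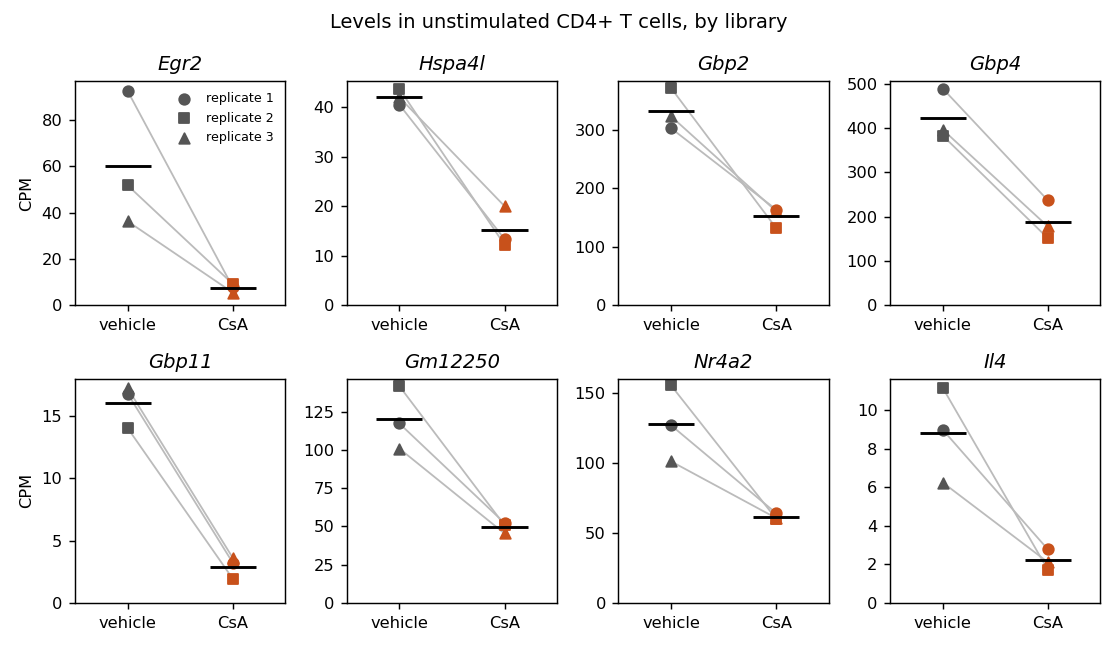
Level of 8 genes (CPM, linear axis from 0) in the 3 vehicle and 3 CsA libraries of unstimulated cells. Symbols give the replicate number, grey lines join libraries of the same number and black bars are group means; in all 8 panels every CsA library lies below every vehicle library.

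The guanylate-binding proteins are interferon-inducible GTPases that attack the membranes of vacuoles and microbes inside cells. Gbp2 (ENSMUSG00000028270, chromosome 3 from 142620602 to 142638008) was at 303, 372 and 323.5 CPM with vehicle and 164, 132 and 161 CPM with CsA. It fell with the block by 1.13 ± 0.15 on the log2 scale (adjusted p = 0.0473; −1.13 ± 0.16 and 0.133 without it). Gbp4 (ENSMUSG00000079363, chromosome 5 from 105115767 to 105139586) was at 489.7, 383 and 397 CPM against 237, 151 and 178 CPM. Its log2 fold change was −1.17 ± 0.20 (adjusted p = 0.237, and 0.014 with the block). Most of the Gbp4 estimate lay in Gbp4-202, a transcript annotated for nonsense-mediated decay, which averaged 391 CPM with vehicle and 173 CPM with CsA. The longest entry, the protein-coding Gbp4-201, averaged 4.39 and 4.51 CPM. Gbp4-203, Gbp4-204, Gbp4-205 and Gbp4-206 had lower means with CsA, and the split among transcripts is itself an estimate. Gbp11 (ENSMUSG00000092021, chromosome 5 from 105323042 to 105346472), annotated as a polymorphic pseudogene, was at 16.8, 14.01 and 17.2 CPM against 3.21, 1.93 and 3.60 CPM. That is the steepest difference of the family, −2.46 ± 0.30 (adjusted p = 0.0924, and 0.014 with the block), and Gbp11 was called in 9 of the 18 alternatives that tested it. In each of these 3 genes the groups did not overlap.

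Of 10 guanylate-binding genes tested, all 10 had a lower mean with CsA, 9 had no overlap between the groups (705 of all genes, 5.13%, were lower without overlap), and 9 had an unadjusted p below 0.05. Their median log2 fold change was −1.01, beside −0.004 over all genes tested. Summed over the family, vehicle libraries held 1415 to 1522 CPM and CsA libraries 605 to 850 CPM. Gbp10 was the member whose groups overlapped, at 9.96 to 19.9 CPM against 2.90 to 12.2 CPM, and Gbp2b was below the expression filter. Per length, Gbp2 and Gbp4 led the family in vehicle cells at mean levels of 190.1 and 171 TPM, and Gbp11 and Gbp5 were lowest at 8.80 and 10.7 TPM. The annotated spans of Gbp4, Gbp8 and Gbp9 overlap one another on chromosome 5, and family members are similar in sequence, so the split of reads among them is uncertain while their sum is less so.

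The immunity-related GTPases, which disrupt the vacuoles of intracellular parasites, followed. Gm12250 (ENSMUSG00000082292, chromosome 11 from 58187739 to 58189012) was at 117, 142 and 101 CPM with vehicle and 52.2, 50.7 and 45.4 CPM with CsA. All vehicle libraries were above all CsA libraries, and the log2 fold change was −1.28 ± 0.17 (adjusted p = 0.104, and 0.0156 with the block). Iigp1 was called in 4 of 19 alternatives, DESeq2 among them, but neither with nor without the block, at 102 ± 17.8 against 46.8 ± 8.24 CPM (−1.13 ± 0.19; adjusted p = 0.237, and 0.0661 with the block). The 2 most abundant members, Tgtp1 and Igtp, averaged 2237 and 2006 CPM with vehicle against 1370 and 1282 CPM with CsA (−0.71 ± 0.25 and −0.65 ± 0.22; both adjusted p = 0.961). Of 8 members tested, all 8 had an unadjusted p below 0.05 on the lower side (2.2% of all genes) and 7 had no overlap between the groups (5.13%). Their median was −0.68, and their sum was 7318 to 10280 CPM against 4446 to 6441 CPM. Tgtp1 and Tgtp2 are near-identical copies, and the spans of Igtp and Irgm2 overlap, so reads could be split between them.

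Both families together gave 18 tested genes. All 18 were lower with CsA, in each of the 3 same-numbered pairs, with log2 fold changes from −2.46 to −0.45; 4 were called with the block. These families were picked out after their values were seen, so the counts describe them and test nothing further. In all 19 alternative settings every family member tested had a lower level with CsA, with medians from −1.07 to −0.76. B cells and myeloid cells also express these genes; the B cell list summed to 5650 CPM in vehicle 2 and 4931 CPM in CsA 2 and to 2672 to 3016 CPM in the other 4 libraries, and the myeloid list to 427 and 416 CPM against 125 to 148 CPM. Their part in the result was not tested. In bulk RNA a smaller share of expressing cells and less RNA per cell cannot be told apart.

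**Figure D2:**
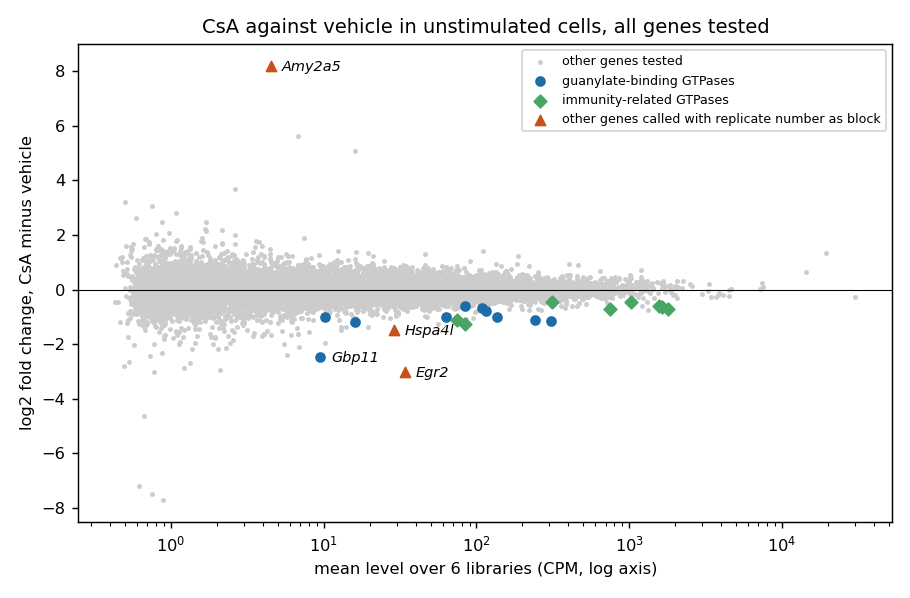
Log2 fold change (CsA minus vehicle) against the mean level over 6 libraries (CPM, log axis) for the genes tested in unstimulated cells. All 18 GTPase genes (circles and diamonds) lie below 0, and triangles mark Egr2, Hspa4l and Amy2a5, the other genes called with the replicate block.

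Interferon gamma is the chief inducer of both GTPase families. Its own gene, Ifng, was at 19.5, 17.1 and 10.8 CPM with vehicle and 16.2, 9.23 and 11.1 CPM with CsA, overlapping (−0.38 ± 0.30; adjusted p = 0.961). Socs1, an interferon-induced brake on Jak kinases, was at 142.8, 133 and 71.1 CPM against 61.2, 57.9 and 46.2 CPM (−1.07 ± 0.26; adjusted p = 0.957, and 0.084 with the block), and it was called in 2 of 19 alternatives, DESeq2 among them. Irf1 overlapped between groups (−0.48 ± 0.27), as did the receptor gene Ifngr1 (−0.19 ± 0.24). Of 11 genes on this list, chosen after values were seen, 2 were lower at an unadjusted p below 0.05 (2.2% of all genes) and 0 were called. The separate list of 17 interferon-stimulated genes such as Isg15 and Mx1 had a median of −0.25, with Rtp4 (39.3 ± 4.63 against 22.2 ± 1.83 CPM, −0.82 ± 0.18) and Stat2 (−0.48 ± 0.19) lower and 0 higher at that threshold.

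Among genes known to report tonic antigen-receptor signals, Egr2 was the 1 called with the block. The list of 20 had 4 members lower and 0 higher at an unadjusted p below 0.05 (Egr2, Myc, Cd69 and Tox), 5 lower without overlap, and a median of −0.17. Over all genes tested, 2.2% were lower and 2.25% higher at that threshold, and 5.13% were lower without overlap. Myc, a driver of growth, was at 77.3, 121.9 and 62.9 CPM with vehicle and 40.3, 57.0 and 38.6 CPM with CsA (−0.95 ± 0.26; adjusted p = 0.961, and 0.089 with the block). Cd69, an early activation receptor, was at 362, 369.7 and 377 CPM against 282.5, 227 and 283.5 CPM (−0.48 ± 0.15). Neither gene overlapped between groups and neither was called. Irf4, which graded receptor signals induce, was at 70.5, 126 and 41.2 CPM against 21.6, 55.2 and 21.97 CPM. The Irf4 groups overlapped, replicate 2 being the highest in each, while each CsA library was below its same-numbered vehicle library (−1.27 ± 0.56; adjusted p = 0.961, and 0.0661 with the block). It was called in 3 of 19 alternatives, each leaving out 1 number under the block.

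Other genes of that kind gave overlapping groups. Nr4a1, the orphan nuclear receptor widely used to report receptor signals, was at 990.1, 756 and 629 CPM with vehicle and 901, 714.5 and 616 CPM with CsA (−0.09 ± 0.22). Egr1 was at 91.2, 75.0 and 58.8 CPM against 84.2, 71.6 and 59.9 CPM (−0.06 ± 0.20). Cd5, an inhibitory receptor set by tonic signals, was at 290.2 ± 35.8 and 296 ± 14.7 CPM (0.03 ± 0.15). Izumo1r was at 50.4 ± 5.35 and 59.2 ± 8.36 CPM (0.23 ± 0.17). Egr3 was near the floor, at 0.657 to 1.38 CPM against 0 to 1.57 CPM. Nr4a3 overlapped as well, at 139 ± 33.7 against 95.8 ± 31.3 CPM (−0.53 ± 0.27). Its relative Nr4a2, picked out after values were seen, did not: 127, 155.5 and 101.2 CPM with vehicle against 64.1, 60.1 and 60.6 CPM with CsA. The log2 fold change of Nr4a2 was −1.05 ± 0.18 (edgeR adjusted p = 0.237, and 0.0661 with the block), and it was called in 5 of 19 alternatives. Egr1 and Nr4a1 thus had like values in both groups where their relatives Egr2 and Nr4a2 had lower values with CsA; the differences between relatives were not tested.

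The drug's own pathway showed no called gene. At an unadjusted p below 0.05, 2.25% of all genes tested were higher and 2.2% lower. That share leaves few or 0 members in lists of 15 to 23 genes. Of 21 tested genes of the calcineurin-NFAT list, 1 was higher (Ppp3cc, a catalytic subunit, 12.1 ± 1.33 against 20.1 ± 3.86 CPM) and 0 were lower at an unadjusted p below 0.05, and the median was 0.08. Rcan1, a calcineurin inhibitor that NFAT induces, was at 5.90, 8.08 and 5.91 CPM with vehicle and 6.20, 5.51 and 5.98 CPM with CsA (−0.17 ± 0.28). Its transcripts Rcan1-201 and Rcan1-202 averaged 3.91 and 2.72 CPM with vehicle and 3.15 and 2.75 CPM with CsA. Nfatc1 was at 251, 262 and 218 CPM against 215, 277 and 225 CPM (−0.03 ± 0.16) and Nfatc2 at 31.9 ± 4.64 against 37.6 ± 6.62 CPM (0.24 ± 0.20). The like gene sums of Nfatc1 hold transcript estimates whose means differed in different directions, and the split among transcripts is itself an estimate. Nfatc1-204 averaged 53.1 ± 17.4 CPM with vehicle and 21.6 ± 16.9 CPM with CsA, and Nfatc1-203 averaged 8.08 ± 13.3 and 28.6 ± 26.2 CPM. The groups overlapped for both transcripts. Nfatc1-201 averaged 97.3 and 88.5 CPM and Nfatc1-202 85.1 and 100.6 CPM, and none of these transcripts was called. The catalytic subunits Ppp3ca and Ppp3cb had log2 fold changes of 0.44 ± 0.24 and 0.52 ± 0.36. Ppia, the cyclophilin that CsA binds, was at 1072 ± 220.3 and 1353 ± 104.5 CPM (0.34 ± 0.19), and 0 of 15 cyclophilin genes had an unadjusted p below 0.05. All of the genes named here had an adjusted p of 0.961 or more. The list of 23 genes of the T cell receptor and its proximal signalling had 0 members at that threshold in either direction and a median of −0.05.

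Transcripts of Il4, Il2 and Il21 were scarce in resting cells, and several cytokine genes had lower values with CsA without being called. Il4, the T helper cytokine that drives type-2 responses, was at 8.98, 11.2 and 6.24 CPM with vehicle and 2.77, 1.72 and 2.11 CPM with CsA. The Il4 groups were well apart (−1.99 ± 0.35; edgeR adjusted p = 0.267, and 0.123 with the block), and it was called in 2 of 18 alternatives. Il2, the T cell growth factor, was at 2.62, 2.86 and 1.31 CPM against 0.381, 0.858 and 0.527 CPM (−1.94 ± 0.53; adjusted p = 0.961). Il21 was at 1.25 to 3.41 CPM against 0.143 to 0.49 CPM. Of 18 cytokine and effector genes tested, 5 were lower (Il2, Il4, Il21, Tnf and Lif) and 1 was higher (Tgfb1, 23.2 ± 5.09 against 42.9 ± 18.7 CPM) at an unadjusted p below 0.05. Over all genes tested, 2.2% were lower and 2.25% higher at that threshold. The median of the list was −0.17, and its sum was 572 to 703 CPM with vehicle and 666.5 to 731.5 CPM with CsA. Among 10 ligands of the TNF family 4 were lower and 0 higher: Tnf, Cd40lg (100.5 ± 26.2 against 69.2 ± 15.1 CPM), Tnfsf8 and Tnfsf14. Summed over the 10 ligands the groups overlapped, at 902 to 1651 CPM with vehicle and 1194 to 1614 CPM with CsA. None of these cytokines or ligands was called with or without the block.

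Some receptors and regulators that activated T cells raise also had lower values, uncalled with or without the block. Slamf1, a costimulatory receptor, was at 57.9, 71.2 and 60.0 CPM with vehicle and 28.2, 27.6 and 39.7 CPM with CsA (−0.99 ± 0.19; adjusted p = 0.446, and 0.134 with the block), and it was called in 2 of 19 alternatives, DESeq2 and no filter. Btla, an inhibitory receptor, was at 32.3 ± 10.7 against 16.3 ± 3.36 CPM and Cd200 at 38.4 ± 7.19 against 20.7 ± 2.81 CPM. Neither pair of groups overlapped. The groups did overlap for Il2ra (54.9 ± 12.1 against 45.9 ± 9.87 CPM) and Cd83 (267 ± 170.5 against 179.5 ± 85.2 CPM). Of 12 surface activation markers 2 were lower and 0 higher at an unadjusted p below 0.05, with a median of −0.23. Of 19 genes of the inhibitory and anergy list 4 were lower and 0 higher at an unadjusted p below 0.05 (Btla, Cd200, Nt5e and Socs1), and of 20 T helper lineage factors 3 were lower and 0 higher. Over all genes tested, 2.2% were lower and 2.25% higher at that threshold.

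On the higher side no gene with a mean of at least 10 CPM was called in edgeR, with or without the block. The 6 with the smallest p among such genes were Rab43, a membrane-traffic GTPase (45.6 ± 4.76 against 81.0 ± 12.3 CPM, 0.83 ± 0.17, adjusted p = 0.627), A630072M18Rik (0.86 ± 0.21), the cyclic AMP phosphodiesterase Pde4d (96.3 ± 10.3 against 145 ± 14.6 CPM, 0.59 ± 0.15), the kinase gene Dapk3 (1.33 ± 0.36, adjusted p = 0.0596 with the block), the immunoglobulin segment Iglv3 (0.95 ± 0.27) and the ERK phosphatase Dusp5 (0.54 ± 0.16). Rab43 was called in 1 of 19 alternatives (DESeq2) and Dapk3 in 2. In all 6 the groups did not overlap, as in 692 of all genes (5.04%) on the higher side. Among 13 AP-1 genes tested, 3 were higher (Junb, Fosl2 and Jund) and 0 lower at an unadjusted p below 0.05, with a median of 0.33. Over all genes tested, 2.25% were higher and 2.2% lower at that threshold. Junb, an AP-1 subunit, was at 1167, 962 and 899 CPM with vehicle and 1496, 1348 and 1278 CPM with CsA (0.45 ± 0.17; adjusted p = 0.961). Klf2, a factor that keeps T cells quiescent, was at 96.8, 67.5 and 114.8 CPM against 122.9, 176.5 and 229.8 CPM, and its target S1pr1, the exit receptor of lymphocytes, at 675 ± 89.0 against 928 ± 15.2 CPM. Both were uncalled with or without the block (0.92 ± 0.26 and 0.46 ± 0.16); Klf2 was called in 1 of 19 alternatives, the block without number 1, and S1pr1 in 0.

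Other programmes differed in how many members met an unadjusted p below 0.05. That threshold was met by 2.2% of all genes on the lower side and 2.25% on the higher side. The immediate-early list exceeded these shares on both sides, and the amino acid list on the higher side, with 0 members called. Of 31 other immediate-early genes 5 were higher and 4 lower at an unadjusted p below 0.05; the largest difference was that of Spry1, a brake on growth-factor signalling, at 10.6, 11.4 and 7.09 CPM with vehicle and 2.45, 5.72 and 2.72 CPM with CsA, without overlap (−1.42 ± 0.39; adjusted p = 0.961, and 0.224 with the block). Klf4 and Ier5 were the largest on the higher side (1.39 ± 0.46 and 1.32 ± 0.41), with overlapping groups, and Ier5 was called in 1 of 19 alternatives. Glycolysis, cholesterol synthesis and cyclophilin lists had 0 members at that threshold, ribosome biogenesis had 2 of 24 lower, the cell cycle list 1 higher and 1 lower of 17, and amino acid transport with ATF4 targets 3 of 15 higher. The 35 pathway and marker lists held 529 tested genes, of which edgeR called 0 without the block and 1, Egr2, with it. AY036118, a transcript with ribosomal RNA sequence, was at 7301, 18980 and 6550 CPM with vehicle and 12310, 50030 and 20700 CPM with CsA; the groups overlapped, each CsA library was above its same-numbered vehicle library, and its part in any result was not tested.

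The gene called in both fits was Amy2a5, an amylase gene on chromosome 3 from 113247178 to 113258837. It was at 0.0655, 0 and 0 CPM with vehicle and 10.1, 10.8 and 6.15 CPM with CsA (edgeR adjusted p = 0.00721, and 0.00236 with the block). The vehicle libraries held 1 count in all and the CsA libraries 407, a ratio of 409 with an exact 95% counting interval of 73 to 16187. Its near-identical copies Amy2a2, Amy2a3 and Amy2a4 carried the same estimates as one another and ran the opposite way, 2.17 to 13.6 CPM with vehicle and 0 to 5.71 CPM with CsA. Summed over the 7 amylase genes listed, of which 6 were tested, the groups overlapped, 7.36 to 58.2 CPM against 7.03 to 33.6 CPM. The call therefore cannot be told apart from a different split of shared reads. A list of 12 genes of the exocrine pancreas, of which 8 were tested, summed to 6.17 to 48.5 CPM with vehicle and 8.61 to 33.6 CPM with CsA.

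**Figure D3:**
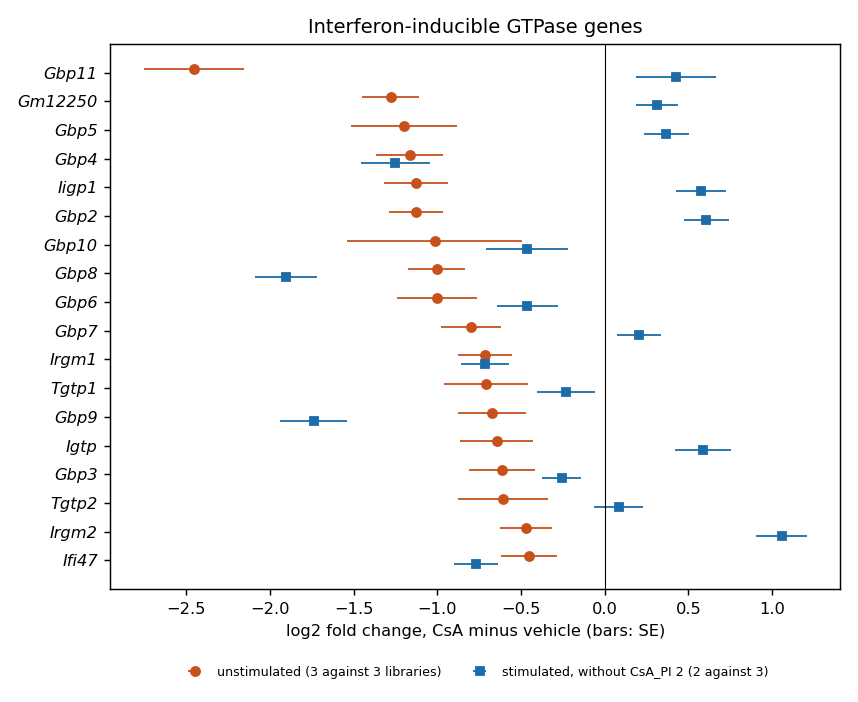
Log2 fold change with CsA (bars, SE) for 18 GTPase genes in unstimulated cells (circles, 3 against 3 libraries) and in stimulated cells without the library labelled CsA_PI 2 (squares, 2 against 3). All circles lie below 0, while 9 of the 18 squares lie below it and 9 above.

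The same genes were then read in cells given PMA and ionomycin, in the 6 libraries labelled as stimulated. Whether CsA_PI 2, so close to vehicle unstimulated 2, is a separate stimulated library is in doubt, so values without it are given first. Calls were more numerous there: without CsA_PI 2 edgeR called 2296 genes lower (17.7% of 12938) and 1716 higher (13.3%), and with it 1412 lower (11.1%) and 971 higher (7.62%). Of the 7 genes called with the block in resting cells, 4 were called in stimulated cells without CsA_PI 2 and 3 with it. Egr2, Hspa4l and Gbp4 were called lower in both fits, and Gbp2, lower at rest, was called higher without CsA_PI 2. On a common scale over 12 libraries, Egr2 averaged 51.8 CPM in vehicle resting cells and 1379 CPM after stimulation, against 6.40 CPM with CsA at rest and 122, 44.6 and 210.4 CPM in CsA_PI 1, 2 and 3. The fall of Egr2 with CsA in stimulated cells had a like size as at rest, −3.03 ± 0.23 without CsA_PI 2 (adjusted p = 5.2e-05) and −3.40 ± 0.51 with it. The test of the difference between states gave −0.02 ± 0.50 without and −0.44 ± 0.67 with that library, uncalled in both.

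Hspa4l showed a deeper fall after stimulation. It averaged 349 CPM with vehicle and stood at 14.4, 38.8 and 14.9 CPM in CsA_PI 1, 2 and 3, so that CsA_PI 1 and 3 were near the 13.1 CPM of resting CsA cells. The log2 fold change was −4.55 ± 0.16 (adjusted p = 1e-06) without CsA_PI 2 and −3.85 ± 0.45 with it, and its difference from the resting effect was −3.06 ± 0.28 without it and −2.46 ± 0.47 with it (adjusted p = 4.36e-05 and 0.00683). Nr4a2 averaged 1258 CPM after stimulation with vehicle against 84.0, 131 and 88.4 CPM in CsA_PI 1, 2 and 3. By contrast Egr1 reached 1261 CPM with vehicle and 1062 and 1201 CPM in CsA_PI 1 and 3, and Nfatc1 1057 CPM against 193 and 230 CPM. CsA_PI 2 stood at 62.2 CPM for Egr1 and 222 CPM for Nfatc1. The difference between states was called for Nfatc1 (−2.26 without CsA_PI 2 and −2.27 with it) and not for Egr1 (−0.06 without and −0.64 with it).

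The GTPases did not share 1 direction after stimulation. Without CsA_PI 2, 5 of the 18 were called lower with CsA (Gbp4, Gbp8, Gbp9, Irgm1 and Ifi47) and 4 higher (Gbp2, Iigp1, Igtp and Irgm2). With it, 4 were called lower and 1 higher. Of all genes tested, 17.7% were called lower and 13.3% higher without CsA_PI 2, and 11.1% and 7.62% with it. Gbp4 stood at 2707 CPM with vehicle against 879, 337 and 1355 CPM in CsA_PI 1, 2 and 3 (−1.25 ± 0.21, adjusted p = 0.00231, without CsA_PI 2; −1.61 ± 0.45 and 0.049 with it). Gbp2 stood at 787 CPM against 1011, 318 and 1348 CPM (0.61 ± 0.13, adjusted p = 0.00848, without CsA_PI 2; 0.23 ± 0.45 and 0.758 with it). The higher Gbp2 was thus called in the fit without that library alone. The test of the difference between states was called without CsA_PI 2 for Gbp2 (1.75, adjusted p = 0.000345), not with it (1.32, adjusted p = 0.141), and for Gbp11 in both (2.89 and 2.96). Both genes were picked out by their resting values, which enter this difference. Ifng was lower with CsA after stimulation, at −4.51 ± 0.26 without CsA_PI 2 and −4.95 ± 0.67 with it.

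Of the genes lower at rest without overlap and with an unadjusted p below 0.05, 246 were also tested in stimulated cells without CsA_PI 2. Of them 90 (36.6%) were called lower and 31 (12.6%) higher there, beside 17.8% and 13.5% of the 12516 genes tested in both. With CsA_PI 2, 243 were tested, of which 72 (29.6%) were called lower and 15 (6.2%) higher, beside 1366 and 969 (7.8%) of 12464. The difference between the CsA effects of the 2 states was called for 1400 genes over 12 libraries, 891 more negative after stimulation (6.19% of 14398) and 509 more positive (3.54%), and for 1865 without CsA_PI 2 (1100 more negative, 7.31% of 15057, and 765 more positive, 5.08%).

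**Figure D4:**
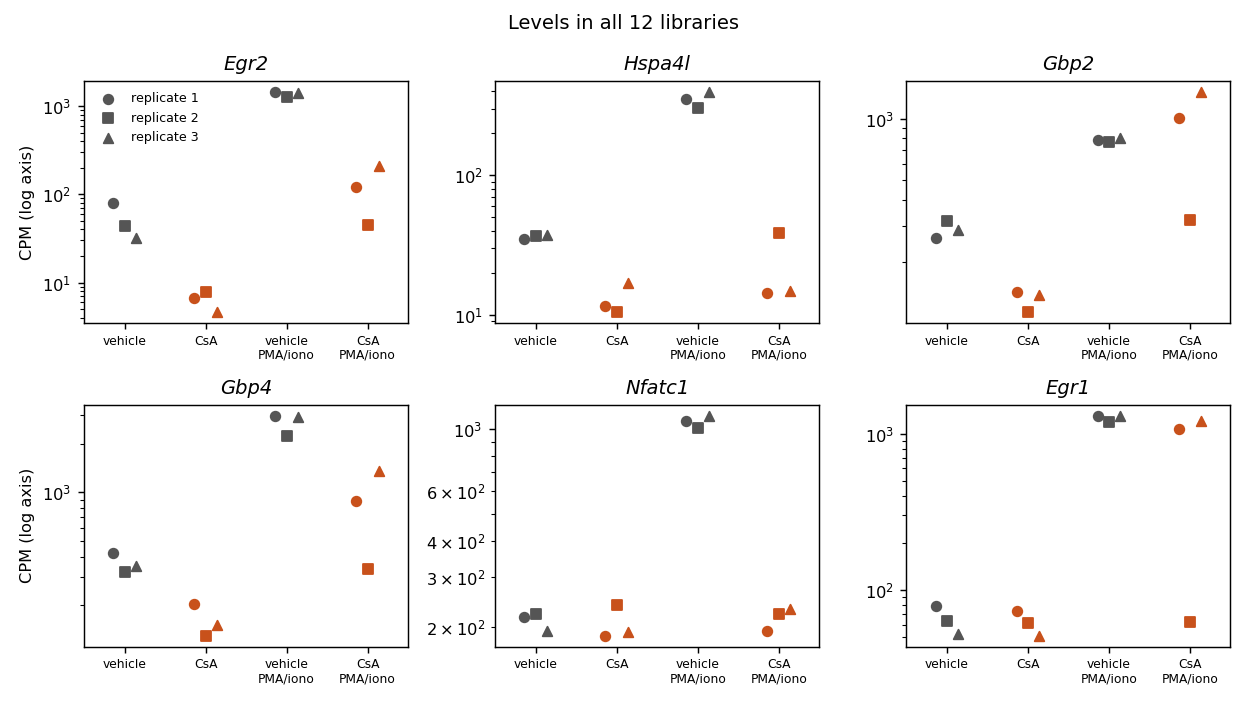
Levels (CPM scaled over 12 libraries, log axis) of 6 genes in vehicle and CsA libraries, unstimulated and after PMA plus ionomycin; symbols give the replicate number. The square at the right of each panel is CsA_PI 2, which lies near vehicle unstimulated 2, and Egr2 is lower with CsA in both states while Egr1 at rest is not.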

How the data were processed

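Messenger RNA of mouse splenic CD4+ T cells was analysed. Per the submitters' processing notes, cutadapt and kallisto were used with the mm10 build; versions are not given in the sources used here. Per the file headers, the deposited tables give an estimated count and TPM per transcript, with transcript lengths, which the authors left unpooled by library. Of 109617 transcripts, 108214 matched GENCODE M21 identifiers on the same build; the 1403 others carried 0.495% to 0.567% of counts in the 6 libraries and were left out. Estimated counts were summed per gene and rounded; TPM was summed likewise and used only for levels between genes. Strand use is not given, so overlapping genes cannot be separated.

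Tests used R 4.3.3 and edgeR 4.0.16 (TMM, expression filter with minimum count 10 and minimum total 15, robust quasi-likelihood), on the 6 unstimulated libraries alone, with Benjamini-Hochberg adjustment over all 13730 genes and calls at 0.05. Each SE came from the log2 fold change and its F statistic. CPM is TMM-scaled. The stimulated comparison used its own 6 libraries and the interaction all 12. The code was run on simulated counts as a check of the log2 fold changes it returns. An effect shared by replicate number was built into those counts, so the run says nothing about the block calls.

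Same-numbered unstimulated libraries correlated in their deviations from group means at 0.194, 0.31 and 0.305 across 13730 genes, against −0.263 to −0.006 for other pairs. The pairing comes from the labels' numbers, which do not say what is shared; the unpaired fit stayed the main one and the number was also used as a block.

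Members and lists were chosen with earlier results of these data known. Named genes were 17 fixed genes, all genes called with or without the block, the 6 higher and 6 lower genes with the smallest p at a mean of at least 10 CPM, and and called or up to 2 members per list, of which the text gives those its results turn on; GTPase, interferon gamma, amylase and pancreas lists, and other names, were chosen after values were seen. Alternatives were other fits, scalings and filters, DESeq2 1.42.0, limma-voom (limma 3.58.1) and leaving libraries out. Some genes are not reported here.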

Additional observations from a re-analysis of the deposited data

Results flagged for a closer look

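The interaction test of edgeR over all 12 libraries called a difference between the CsA effects of the 2 states for 29 of the 74 genes followed. Values are the effect after stimulation minus the effect at rest on the log2 scale. Of all 14398 genes tested, 6.19% were called more negative after stimulation and 3.54% more positive. Many of the 74 were followed for their resting values, which enter this difference. The count therefore describes them and tests nothing further. Among the genes of the resting effect they were Hspa4l −2.46, Gm12250 1.33, Gbp8 −1.10, Iigp1 1.51, Gbp11 2.96, Irgm2 1.41 and Nr4a2 −2.58. Among cytokines and ligands they were Il2 −4.84, Il4 −4.55, Il21 −4.25, Tnf −3.60, Ifng −4.63, Tnfsf8 −2.27, Cd40lg −4.08 and Tnfsf14 −4.08. Among receptors and signalling genes they were Btla −2.31, Cd200 −2.12, Slamf1 −3.44, Ifngr1 2.58, S1pr1 3.22, Orai1 −2.08, Plk3 −2.86 and Spry1 −3.46. Among transcription factors and interferon-response genes they were Nfatc1 −2.27, Nfatc2 1.30, Nr4a3 −2.28 and Rtp4 1.65. A630072M18Rik differed by −1.35. Amy2a5 differed by −10.21, a value that depends on a vehicle group with 1 count and on reads shared with its copies. Adjusted p-values ranged from 0.000143 to 0.0468, and without the library labelled CsA_PI 2 all 29 kept their direction and stayed under 0.05.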

How the results depend on the processing

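The count of called genes depended on how the spread was estimated. With replicate number as a block the calls went from 1 to 7, from 0 to 6 lower, and from 0 to 1 list member, while transcript calls stayed at 0, the common coefficient of variation being 0.308 without and 0.224 with the block. With 11 libraries in 1 fit (without CsA_PI 2) there were 7 calls, 6 lower and 2 list members. With all 12 libraries, and with 12 and the block, there was 1 lower call (Gbp11) and 0 higher. No low-count filter gave 15 calls, 14 lower and 4 list members; a mean of at least 10 CPM, which removes Amy2a5, gave 0 calls and 0 higher, with 441 genes at an unadjusted p below 0.05. DESeq2 gave 23 calls, 4 higher, 19 lower and 5 list members. RLE scaling, library totals and limma-voom each gave 1. Leaving out 1 library gave 0 to 1 calls and 0 to 1 higher; the call of Amy2a5 was lost without vehicle 1, 2 or 3 or CsA 2. Leaving out both libraries of number 1, 2 or 3 under the block, chosen with the data in view, gave 57, 47 and 12 calls (27, 17 and 4 higher; 30, 30 and 8 lower; 10, 5 and 2 list members), and 7, 7 and 5 of these were among the 7 block calls. The cause of these changes was not tested. The state difference was called for 2274 genes without CsA_PI 2 and with the block, against 1400.

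Of 74 genes followed, 69 kept their direction over 19 alternatives. The other 5 were near 0: Rcan1 was 0.04 without number 2 under the block; Nfatc1 was −0.142 to 0.056 with a single library left out and 0.075 without number 1 under the block; Egr1 was −0.189 to 0.105, Nr4a1 −0.241 to 0.102 and Cd5 −0.029 to 0.135 with a single library left out, and Cd5 was −0.001 without number 3 under the block. Il2 averaged 2.26 CPM with vehicle, against a limit for a count of 0 of up to 0.262 CPM; the part of depth in missing calls was not tested.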
